A study of Mus musculus with 15 samples.

Results

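The genes described here are the inhibitors of cyclin-dependent kinases (CDKs) and the pocket proteins, 9 genes of the 19297 that the arrays measured with a probe set of a single symbol: Cdkn1b, Cdkn1c, Cdkn2a, Cdkn2b, Cdkn2c, Cdkn2d, Rb1, Rbl1 and Rbl2. They were chosen by name, with earlier results of these data known. Each was read from the probe set of its symbol that was brightest on average over the 15 arrays. Total RNA came from Myc-CaP cells, a mouse prostate cancer line, which had been transfected, selected and harvested at confluence. The cells carried the vector alone (VEC), wild-type Twist1 (WT), a basic helix-loop-helix transcription factor that binds E-box motifs, or 1 of the Twist1 mutants AQA, DQD and F191G, with 3 arrays in each of the 5 groups. F191G lies in the Twist box, the C-terminal domain named in the study's title, and the study compared WT and F191G with VEC. The residues that AQA and DQD change, the promoter of the construct, whether a line was a clone or a pool, and whether the 3 replicates, lettered A to C, were separate cultures: none of this is given in the sources used here. The p-values rest on the spread among the arrays of a group, which may be technical only. All values are log2 intensities, and a difference of 1 is a 2-fold change.

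CDKs bound to cyclins drive the cell cycle, and their inhibitors hold them back. The CIP/KIP proteins p27 (Cdkn1b) and p57 (Cdkn1c) bind cyclin-CDK complexes, while the INK4 proteins p16 (Cdkn2a), p15 (Cdkn2b), p18 (Cdkn2c) and p19 (Cdkn2d) bind CDK4 and CDK6 and block their pairing with D cyclins. The pocket proteins RB (Rb1), p107 (Rbl1) and p130 (Rbl2) are what these kinases phosphorylate: in their less phosphorylated form they bind E2F factors and restrain the genes of DNA replication. p130 is known as the pocket protein of resting cells and as part of the DREAM complex, whereas p107 is itself an E2F target that rises in cycling cells. In prostate cancer, p27 and RB are known as tumour suppressors.

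The values below turn mainly on Rbl2 and Rbl1, so the promoters of these genes are printed, from 250 bases before to 50 bases after the start of the gene in RefSeq on the GRCm38.p6 build. Capitals mark matches to motifs that were searched on both strands: TTTCGCGC or TTTGGCGC for E2F, TTTGAA for the cell cycle homology region that DREAM binds, and CANNTG for the E-box.
Rbl1, chr2:157204485-157204784, minus strand: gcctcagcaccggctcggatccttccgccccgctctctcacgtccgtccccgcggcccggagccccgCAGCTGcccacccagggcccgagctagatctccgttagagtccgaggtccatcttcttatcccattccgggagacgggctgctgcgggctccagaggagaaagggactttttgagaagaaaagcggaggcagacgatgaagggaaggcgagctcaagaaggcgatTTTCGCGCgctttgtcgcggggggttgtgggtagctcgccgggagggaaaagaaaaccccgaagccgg
Rbl2, chr8:91069807-91070106, plus strand: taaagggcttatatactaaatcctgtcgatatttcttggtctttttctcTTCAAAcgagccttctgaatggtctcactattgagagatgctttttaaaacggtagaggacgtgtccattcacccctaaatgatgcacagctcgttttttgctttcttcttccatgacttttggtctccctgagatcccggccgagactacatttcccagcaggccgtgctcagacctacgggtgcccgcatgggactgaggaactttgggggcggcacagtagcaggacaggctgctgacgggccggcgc
The Rbl1 sequence held an E2F match, TTTCGCGC, at -18 to -11 from the start, and an E-box match, CAGCTG, at -183 to -178. In the Rbl2 sequence the match was TTCAAA at -201 to -196, which is TTTGAA on the other strand. Of 32851 mouse promoters of this length, 0.813% held the E2F letters, 17.9% TTTGAA and 72.3% an E-box. Of the 9 members, 7 had promoters in the table, with 9 start sites in all. Among these, E2F letters were found in Rbl1 alone, TTTGAA in Rbl2 and Cdkn2b, and an E-box in Rbl1, Cdkn2b and the second start of Cdkn2c. The forms CATATG and CATCTG, often bound by Twist proteins, were in none of the 9 and in 20.3% of all promoters, and the FoxO motif TGTTTAC was likewise in none and in 3.65% of all promoters. These are matches of letters, not measured binding.

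The arrays fell in 2 labelled batches, of 8 and 7 arrays, with every group in both, and batch was a term of the model. Arrays correlated with each other at 0.975 to 0.998, and at 0.992 or more once replicate A of WT was left out. The probe set of Twist1 read 6.45, 6.71 and 6.13 in VEC and 6.77, 6.85 and 6.75 in WT, a difference of 0.36 (SE 0.147, limma adjusted p = 0.129). The other forms were 0.25 to 0.35 above VEC (limma adjusted p = 0.183 to 0.438), so no form of Twist1 was called above the vector by this probe set, and whether it reads the introduced sequence is not given. The epithelial keratin Krt8 had a mean of 7.97, while Krt18, Epcam, Cdh1, Krt5, Krt14 and Trp63 had means of 5.01 to 5.79, below the array medians of 6.31 to 6.42, so of the 7 markers of prostate epithelial cells measured, Krt8 alone had a mean above the array medians. No detection calls were used. In bulk RNA, fewer cells of a type and less RNA per cell cannot be told apart.

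Each comparison was read at an adjusted p under 0.05 from limma over all 19297 genes. Against VEC, WT Twist1 changed 1 of the 9 members, Rbl2, which rose, where 12.8% of all genes were called (7.06% higher and 5.72% lower). None of the 9 was called for AQA (0.881% of all genes), DQD (0.814%) or F191G (0.0985%). By limma's p without adjustment, 3, 1 and 0 members were under 0.05, where 15.7%, 24% and 11.7% of all genes were. Against WT, DQD changed 3 members, with Rbl1 higher and Rbl2 and Cdkn2b lower, where 24.5% of all genes were called (11.8% higher and 12.8% lower). F191G changed 1, Rbl2, which was lower, where 7.13% of all genes were called (3.18% higher and 3.95% lower). AQA changed 0, where 0.726% of all genes were called, and 3 members had an unadjusted limma p under 0.05, as did 25% of all genes. With 9 members, 1 called gene is 11.1% of them and 3 are 33.3%. The counts in WT against VEC, DQD against WT and F191G against WT thus lie near the background. In the WT against VEC comparison the groups did not overlap for 3 members (31.6% of all genes), and in DQD and F191G against WT for 5 members each (48.2% and 34.4% of all genes). The median difference of the 9 from VEC was 0.13 for WT, 0.02 for AQA, 0.12 for DQD and -0.04 for F191G, against -0.01, -0.04, -0.05 and -0.03 over all genes. The comparisons with VEC share its 3 arrays, and those with WT share the 3 WT arrays.

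**Figure D1:**
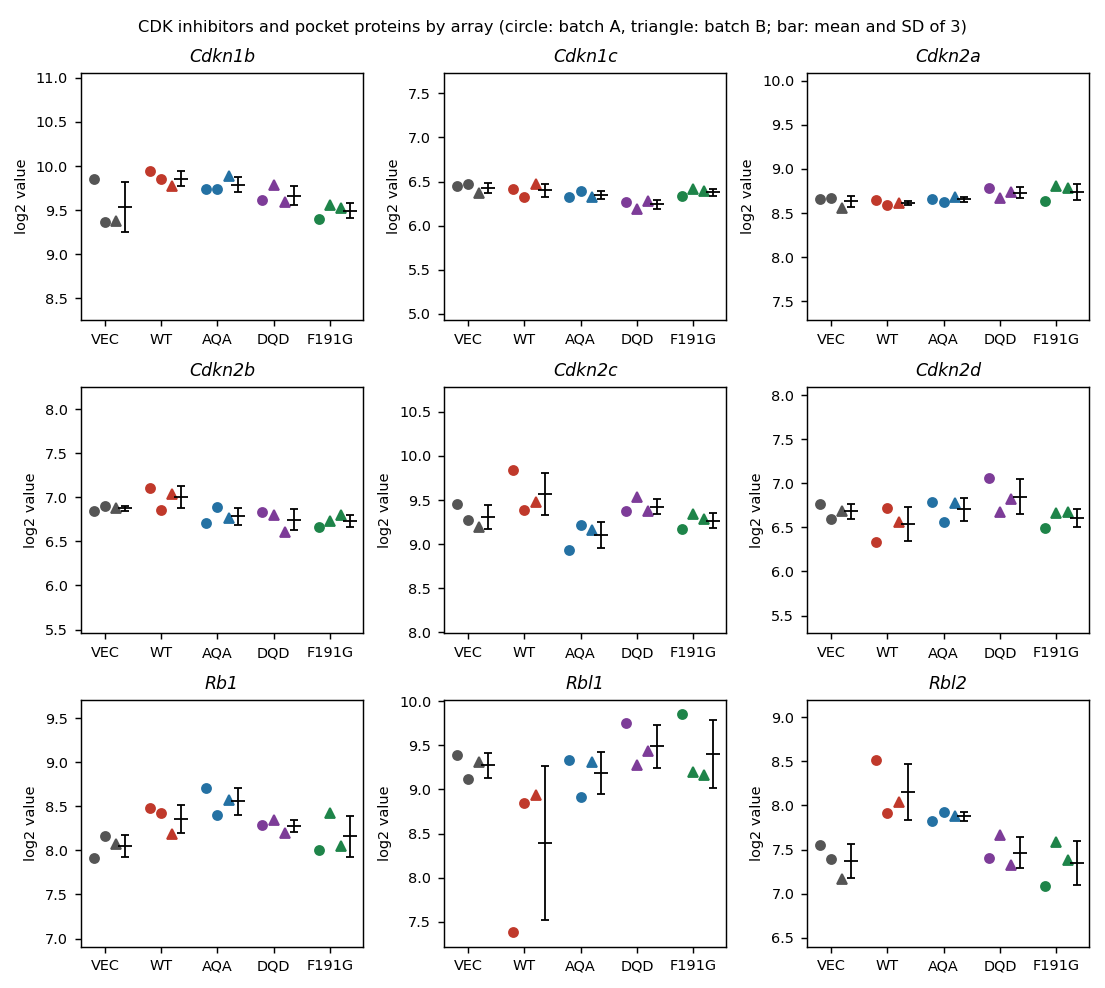
Log2 intensity of each member on every array (circles batch A, triangles batch B) by group, with the mean and SD of 3 arrays; each panel spans its own range of levels. Rbl2 is highest in WT, 8.16 on average against 7.37 in VEC, and the lowest Rbl1 value, 7.38, is that of a single WT array.

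Rbl2, which encodes p130, was the only member called higher in WT than in VEC, where 5 of the 9 differences were above 0. It read 7.55, 7.40 and 7.16 on the VEC arrays and 8.51, 7.91 and 8.04 on the WT arrays. Every WT array lay above every VEC array. The means were 7.37 ± 0.20 and 8.16 ± 0.32 (SD, n = 3), a difference of 0.79 (SE 0.162, 95% interval 0.436 to 1.13), or 1.72-fold, with a limma adjusted p of 0.0123. In the AQA cells Rbl2 read 7.83, 7.92 and 7.88, with a mean of 7.88 ± 0.05 (SD, n = 3). These arrays also lay above all VEC arrays, and the highest of them lay just within the WT range. The difference of 0.51 from VEC (95% interval 0.156 to 0.855) was not called (limma adjusted p = 0.157), nor was that of -0.28 from WT (95% interval -0.63 to 0.07, limma adjusted p = 0.311), which was -0.09 without replicate A of WT. AQA therefore could not be separated from either group.

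In DQD cells Rbl2 read 7.41, 7.66 and 7.32, and in F191G cells 7.08, 7.58 and 7.38. Both groups overlapped VEC and lay wholly below WT. Relative to WT, Rbl2 fell by 0.69 in DQD (SE 0.166, 1.61-fold lower, limma adjusted p = 0.0170) and by 0.81 in F191G (SE 0.166, 1.75-fold lower, limma adjusted p = 0.0304). From VEC the differences were 0.09 in DQD (95% interval -0.26 to 0.45) and -0.02 in F191G (95% interval -0.38 to 0.34). The order of the 5 means was WT, AQA, DQD, VEC and F191G, and no neighbours in it differed at an adjusted p under 0.05.

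In batch B, VEC, WT and AQA had 1 array each, and in batch A, DQD and F191G had 1 array each. Values by batch, here and below, use the arrays of the main fit and are not separate replications. The direction of these 3 Rbl2 differences held in both batches: 0.74 and 0.88 for WT against VEC, -0.80 and -0.55 for DQD against WT, and -1.13 and -0.56 for F191G against WT, in batches A and B. Each was lost as a call when only the arrays of the groups compared were fitted (limma adjusted p = 0.132, 0.155 and 0.293). Leaving out replicate C of VEC ended the first (0.66, adjusted p = 0.0861), and leaving out replicate A of DQD ended the second (-0.65, adjusted p = 0.101). The third was lost without replicate A of WT (-0.64, adjusted p = 0.0527), replicate A of F191G (-0.61, adjusted p = 0.222) or replicate C of F191G (-0.82, adjusted p = 0.0614), all by limma. The first was also lost with the Twist1 level of each array as a covariate (0.73, limma adjusted p = 0.104).

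**Figure D2:**
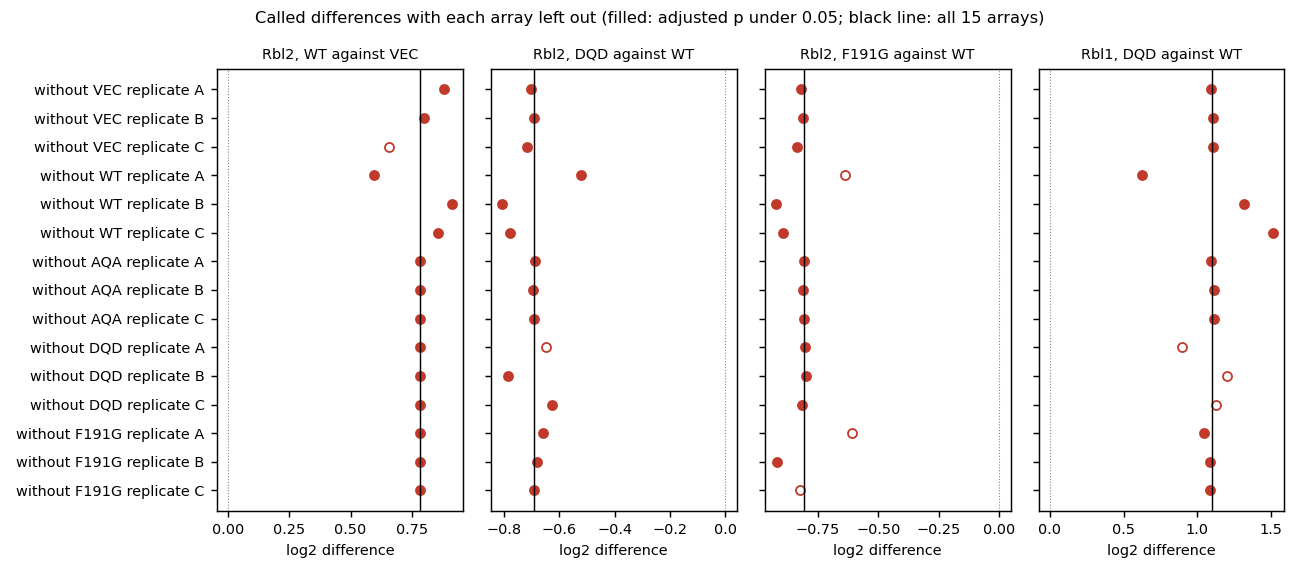
Log2 difference of the 4 called pocket protein results with each of the 15 arrays left out in turn; filled points have an adjusted p under 0.05, the black line is the value from all arrays and the dotted line is 0. No point crosses 0, and the Rbl1 value, 1.10 from all arrays, is 0.62 without replicate A of WT.

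Rbl1, which encodes p107, had the widest range of the 9 members, 2.47 over the 15 arrays. It read 9.39, 9.12 and 9.32 in VEC and 7.38, 8.84 and 8.94 in WT. All WT arrays lay below all VEC arrays, and replicate A of WT lay 1.46 below the next WT array. The difference of -0.89 (SE 0.332, 95% interval -1.60 to -0.17) was not called (limma adjusted p = 0.0970). It became -0.36 (limma adjusted p = 0.321) without replicate A of WT, and it was called without replicate B of WT (-1.12, adjusted p = 0.0468) or replicate C of WT (-1.23, adjusted p = 0.0337), both of which leave replicate A in place. Within batches it was -1.14 in A and -0.37 in B.

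In the mutant groups Rbl1 read 9.34, 8.92 and 9.31 in AQA, 9.76, 9.28 and 9.43 in DQD, and 9.85, 9.20 and 9.16 in F191G. All 3 overlapped VEC, and DQD and F191G lay wholly above WT. Rbl1 was 1.10 higher in DQD than in WT (SE 0.340, 95% interval 0.365 to 1.84, 2.14-fold, limma adjusted p = 0.0348). Without replicate A of WT this was 0.62 and still called (limma adjusted p = 0.0487), but it was lost without replicate A (0.90, adjusted p = 0.173), B (1.20, adjusted p = 0.0528) or C (1.13, adjusted p = 0.0607) of DQD. It was lost, too, with only the arrays of the groups compared (1.03, limma adjusted p = 0.196), and narrowly with quantile normalization (adjusted p = 0.0509) or a variance trend with robust moderation (adjusted p = 0.0507). In F191G Rbl1 was 1.01 above WT (95% interval 0.280 to 1.75) and in AQA 0.80 (95% interval 0.0814 to 1.52), neither called (limma adjusted p = 0.0763 and 0.156). The F191G difference was called without replicate B (1.23, limma adjusted p = 0.0368) or replicate C (1.43, limma adjusted p = 0.0397) of WT. Without replicate A of WT, the F191G difference was 0.54 and the AQA difference 0.27 (limma adjusted p = 0.138 and 0.532). For DQD against WT the values within batches A and B were 1.64 and 0.41, and for F191G against WT they were 1.74 and 0.24.

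Rb1, which encodes RB itself, was not called in any of the 10 comparisons. It read 7.91, 8.16 and 8.07 in VEC, 8.48, 8.42 and 8.18 in WT, and 8.70, 8.40 and 8.57 in AQA. The WT and AQA arrays lay wholly above those of VEC, as did the DQD arrays. The largest of its differences was AQA against VEC, 0.51 (SE 0.122, 95% interval 0.244 to 0.770, limma adjusted p = 0.0709), with 0.51 and 0.49 in batches A and B. Without replicate A of WT, an array that is in neither group, the same 0.51 was called (limma adjusted p = 0.0436), as it was without a batch term (adjusted p = 0.0407). WT against VEC was 0.31 (95% interval 0.0483 to 0.574, limma adjusted p = 0.111), and 0.42 without replicate C of WT, which was called (limma adjusted p = 0.0478). In DQD Rb1 read 8.29, 8.34 and 8.20 and in F191G 8.01, 8.43 and 8.05, with differences from VEC of 0.23 and 0.11 (limma adjusted p = 0.285 and 0.782). The means ran AQA, WT, DQD, F191G and VEC from high to low, with no neighbours apart at an adjusted p under 0.05.

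**Figure D3:**
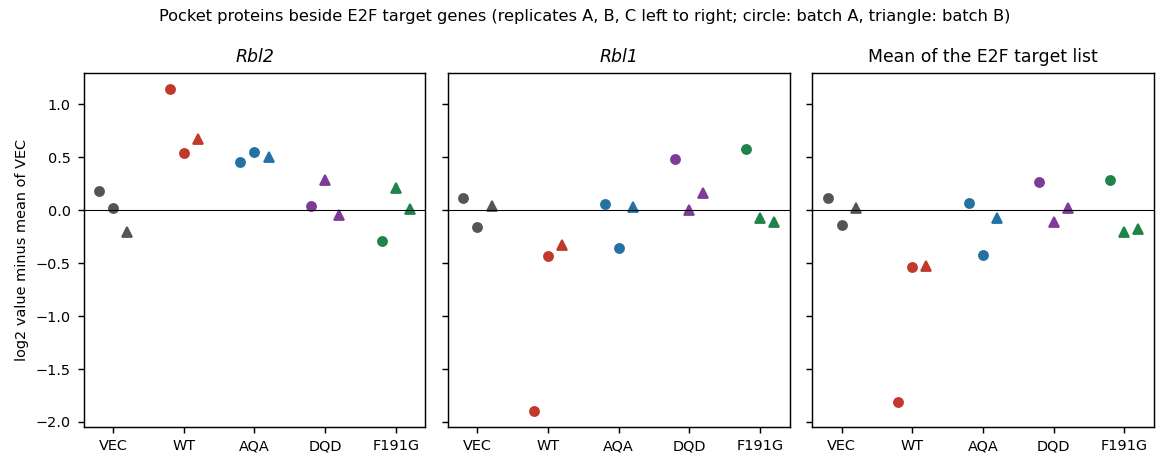
Rbl2, Rbl1 and the mean of 28 E2F target genes on each array, as log2 value minus the mean of the 3 VEC arrays (circles batch A, triangles batch B; replicates A, B and C from left to right in each group). WT arrays are above 0 for Rbl2 and below 0 for Rbl1 and for the E2F targets, where replicate A of WT is at -1.81 and the others at -0.54 and -0.52.

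Of the CIP/KIP genes, Cdkn1b, which encodes p27, was not called in any comparison. It read 9.86, 9.36 and 9.37 in VEC, 9.94, 9.85 and 9.77 in WT, 9.74, 9.74 and 9.89 in AQA, 9.62, 9.78 and 9.59 in DQD, and 9.40, 9.56 and 9.53 in F191G. Replicate A of VEC lay 0.48 above the next VEC array and inside the WT range. WT exceeded VEC by 0.32 (SE 0.117, 95% interval 0.0705 to 0.576, limma adjusted p = 0.0872), and by 0.49 without that array, which was called (limma adjusted p = 0.0117). F191G lay wholly below WT, by 0.36 (95% interval 0.102 to 0.620 lower, limma adjusted p = 0.0746). That difference too was called without replicate A of VEC (-0.38, limma adjusted p = 0.0328). A dimmer probe set of Cdkn1b gave another order, with means rising from VEC (6.03) through F191G (6.22), WT (6.23) and AQA (6.36) to DQD (6.46). Its WT against VEC difference was 0.19 (limma adjusted p = 0.335) and its largest was DQD against VEC, 0.43 (limma adjusted p = 0.0742).

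Cdkn1c, which encodes p57, stayed between 6.19 and 6.47 on all 15 arrays, a range of 0.283. Its lowest group was DQD, with 6.27, 6.19 and 6.27, below all VEC arrays at 6.44, 6.47 and 6.37. The difference was -0.18 (limma adjusted p = 0.106), and that from WT was -0.16 (limma adjusted p = 0.0729). The difference from WT was called without replicate B of WT (-0.20, limma adjusted p = 0.0437). Cdkn1a, the third gene of the family, was read by a probe set that carries several symbols and was not analysed here.

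Among the INK4 genes, Cdkn2b was called in 1 comparison. This inhibitor, p15, read 6.85, 6.90 and 6.88 in VEC, 7.10, 6.86 and 7.04 in WT, 6.70, 6.89 and 6.77 in AQA, 6.83, 6.80 and 6.61 in DQD, and 6.67, 6.73 and 6.80 in F191G. DQD and F191G lay wholly below WT and below VEC, by small margins. Relative to WT, Cdkn2b fell by 0.25 in DQD (SE 0.0845, 1.19-fold lower, limma adjusted p = 0.0445), with -0.15 and -0.34 within batches A and B. Of 28 alternatives, 7 kept this call. Leaving out any single array other than replicate B of WT or replicate B of AQA ended it (limma adjusted p up to 0.142), as did centring each array on its median (-0.14, adjusted p = 0.225). The F191G difference from WT, -0.27, was of the same size and was not called (limma adjusted p = 0.0636). It was called without replicate B of WT (-0.34, adjusted p = 0.0250), without the batch term (adjusted p = 0.0354) and without the dimmest 33.3% of genes (adjusted p = 0.0483), all by limma. From VEC, WT differed by 0.13 (95% interval -0.05 to 0.30) and the mutants by -0.15 to -0.09, none of them called. AQA was 0.21 below WT (limma adjusted p = 0.130), and 0.29 below without replicate B of WT, which was called (adjusted p = 0.0447).

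Cdkn2c, p18, read 9.46, 9.27 and 9.20 in VEC, 9.84, 9.39 and 9.48 in WT, 8.94, 9.22 and 9.16 in AQA, 9.38, 9.53 and 9.37 in DQD, and 9.17, 9.34 and 9.29 in F191G. AQA and F191G lay wholly below WT. The AQA difference from WT was -0.46 (SE 0.116, 95% interval -0.71 to -0.21, limma adjusted p = 0.0560), and it was called without replicate B of WT (-0.56, adjusted p = 0.0193) or replicate B of AQA (-0.52, adjusted p = 0.0427). AQA was thus the group with the lowest Cdkn2c mean and the highest Rb1 mean. The F191G difference was -0.30 (limma adjusted p = 0.121), and WT exceeded VEC by 0.26 (limma adjusted p = 0.165). Without replicate A of WT these were -0.17 and 0.12 (limma adjusted p = 0.378 and 0.576).

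Cdkn2a gave the narrowest range of the 9 members, 0.246, with values between 8.56 and 8.81. The gene encodes p16 and, from another first exon, the Arf protein that acts through p53, and the annotation used here does not say which transcripts the probe set reads. WT differed from VEC by -0.02 (95% interval -0.15 to 0.12), and the largest difference, F191G against WT, was 0.13 (limma adjusted p = 0.218). Cdkn2d, p19, ran from 6.33 in replicate A of WT to 7.06 in replicate A of DQD. The DQD arrays, at 7.06, 6.67 and 6.82, overlapped the WT arrays, at 6.33, 6.72 and 6.56. The difference of 0.31 was not called (limma adjusted p = 0.0696), but was called without replicate B of WT (0.40, adjusted p = 0.0294) or replicate B of DQD (0.40, adjusted p = 0.0469), and was 0.15 without replicate A of DQD (adjusted p = 0.408). Centring the arrays on their medians adds 0.11 to every DQD against WT difference, and Cdkn2a (0.23, adjusted p = 0.0197) and Cdkn2d (0.42, adjusted p = 0.0248) were then called higher by limma. With that centring the genes called in DQD against WT split into 3885 higher and 926 lower, where without it they split into 2272 and 2463.

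**Figure D4:**
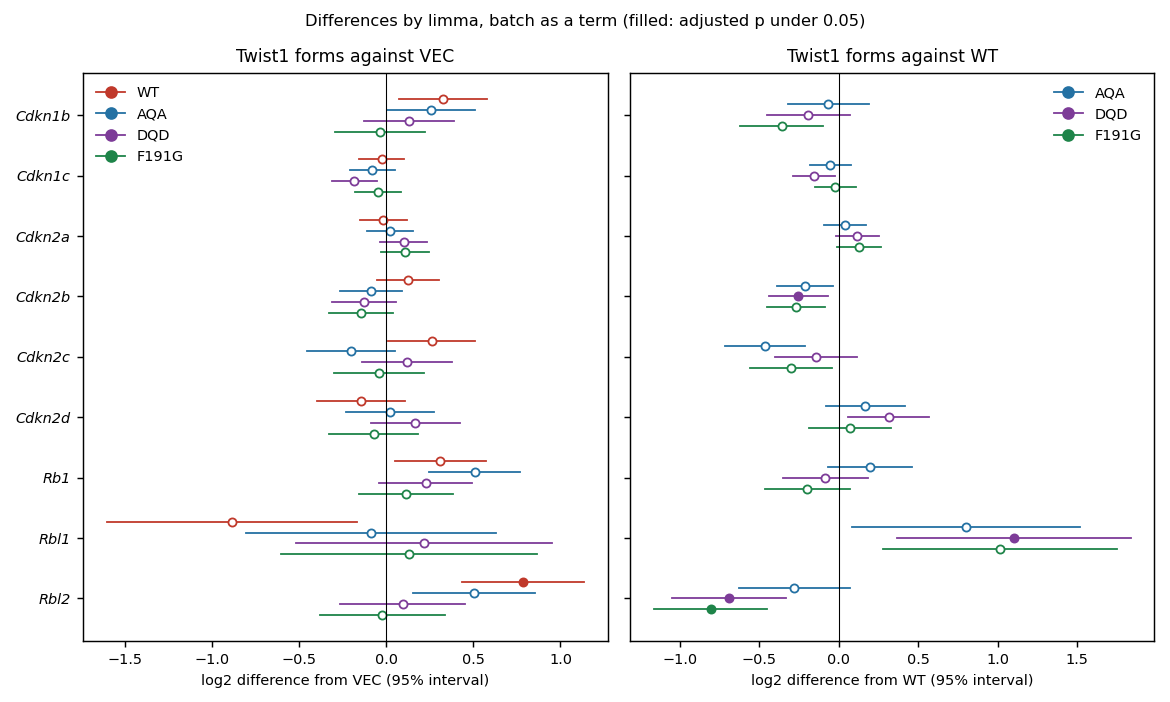
Log2 differences of the 9 members from VEC (left) and from WT (right) by limma with 95% intervals; filled points have an adjusted p under 0.05. Filled points are Rbl2 in WT against VEC (0.79), Rbl2, Rbl1 and Cdkn2b in DQD against WT (-0.69, 1.10 and -0.25) and Rbl2 in F191G against WT (-0.81).

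Between mutants, no member was called in DQD against AQA (0.0259% of all genes called), F191G against AQA (0.0104%) or F191G against DQD (0.00518%). Unadjusted limma p-values under 0.05 were found for 3, 3 and 1 members, where 14.6%, 11.1% and 9.05% of all genes had one. The largest of these differences was in Rbl2, which was 0.53 lower in F191G than in AQA (95% interval 0.170 to 0.887 lower, limma adjusted p = 0.237), or 0.33 lower without replicate A of F191G (limma adjusted p = 0.758). DQD and F191G differed in Rbl2 by -0.12 (95% interval -0.47 to 0.23) and in Rbl1 by -0.09 (95% interval -0.80 to 0.63).

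The other genes of the pathway were taken from 6 lists with 92 measured members. These lists too were chosen with earlier results of these data known, so the shares of all genes beside them are no independent test. Against VEC, 6 list genes were called higher and 32 lower in WT, where 7.06% and 5.72% of all genes were. None was called in AQA, DQD or F191G, where 0.881%, 0.814% and 0.0985% of all genes were. There limma's unadjusted p was under 0.05 for 8, 9 and 7 list genes, and for 15.7%, 24% and 11.7% of all genes. Of 28 E2F targets, genes of DNA replication that pocket proteins restrain, 18 fell and 0 rose, with a list median of -0.99 against -0.01 over all genes. Gins2, a subunit of the replicative helicase complex, fell by 0.99 (SE 0.182, limma adjusted p = 0.00872). The E2F targets' medians in AQA, DQD and F191G against VEC were -0.15, 0.06 and -0.01, with 0 called and 0 at an unadjusted p under 0.05 by limma. On single arrays, the list mean minus that of VEC was -1.81 in replicate A of WT and -0.54 and -0.52 in the other WT arrays, and the mutants' arrays lay between -0.42 and 0.29. Replicate A of WT was thus the extreme array for the E2F targets and for Rbl1, and also for Rbl2 in the other direction.

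Among 15 CDKs and cyclins, which include partners that the inhibitors act on, 5 fell in WT and 0 rose. These were Cdk1 (-0.80), Cdk2 (-0.55), Ccne1 (-0.90), Ccne2 (-0.95) and Ccnh (-0.34), of which Cdk2 with the E cyclins is the target of p27 at entry into S phase. Of 12 CDK activators and genes of p27 turnover, 3 fell. Skp2, the ubiquitin ligase subunit that marks p27 for degradation, fell by 0.67 (SE 0.146, limma adjusted p = 0.0144), its cofactor Cks1b by 0.50 and Rbx1 by 0.29. Of 10 E2F and DP factors, 5 fell, among them E2f1 (-0.78), E2f4 (-0.35) and Tfdp1 (-0.38), while Tfdp2 rose by 0.51 (limma adjusted p = 0.0110). None of the 8 genes listed as MuvB and DREAM partners, which include Mybl1, Mybl2 and Foxm1, was called (list median -0.48). For 6 of them limma's p before adjustment was under 0.05.

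Of 19 regulators of the INK4 and KIP genes, 5 rose and 1 fell in WT. Foxo1, a forkhead factor known to activate Cdkn1b and Rbl2, rose by 0.70 (SE 0.121, limma adjusted p = 0.00726), Id3 by 0.86, Kdm6b by 0.64, Cbx8 by 0.36 and Cbx7 by 0.21. Eed, a Polycomb subunit, fell by 0.61 (limma adjusted p = 0.0201). Foxo1 was 0.46 above VEC in AQA (limma adjusted p = 0.0961), and relative to WT it fell by 0.44 in DQD and by 0.56 in F191G (limma adjusted p = 0.0259 and 0.0318). Skp2 was higher in DQD and F191G than in WT, by 0.61 and 0.57 (limma adjusted p = 0.0175 and 0.0444).

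These counts moved with single arrays, also with arrays of groups outside the comparison. In WT against VEC the 6 higher and 32 lower list genes became 3 and 11 without replicate A of WT, 8 and 56 without its replicate B, 7 and 55 without its replicate C, 5 and 6 without replicate A of VEC, 4 and 15 without its replicate B, and 0 and 0 without its replicate C (8 and 52 at an unadjusted p under 0.05 by limma). The 18 E2F targets that fell became 6, 26 and 28 without replicate A, B or C of WT and 1, 6 and 0 without replicate A, B or C of VEC (25 at an unadjusted p under 0.05 by limma in the last). Leaving out an array of AQA, DQD or F191G gave 15 to 36 lower list genes and 6 to 18 E2F targets that fell, with the fewest, 15 and 6, without replicate C of AQA or replicate C of DQD; all 28 E2F targets then had an unadjusted limma p under 0.05. In DQD against WT, 61 list genes were called higher and 6 lower, where 11.8% and 12.8% of all genes were. The higher ones held 27 of the 28 E2F targets. Without replicate A of DQD the 61 and 6 were 0 and 0 (54 and 5 at an unadjusted p under 0.05 by limma). Without replicate C of DQD they were 36 and 1, and without replicate A of WT 40 and 1.

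**Figure D5:**
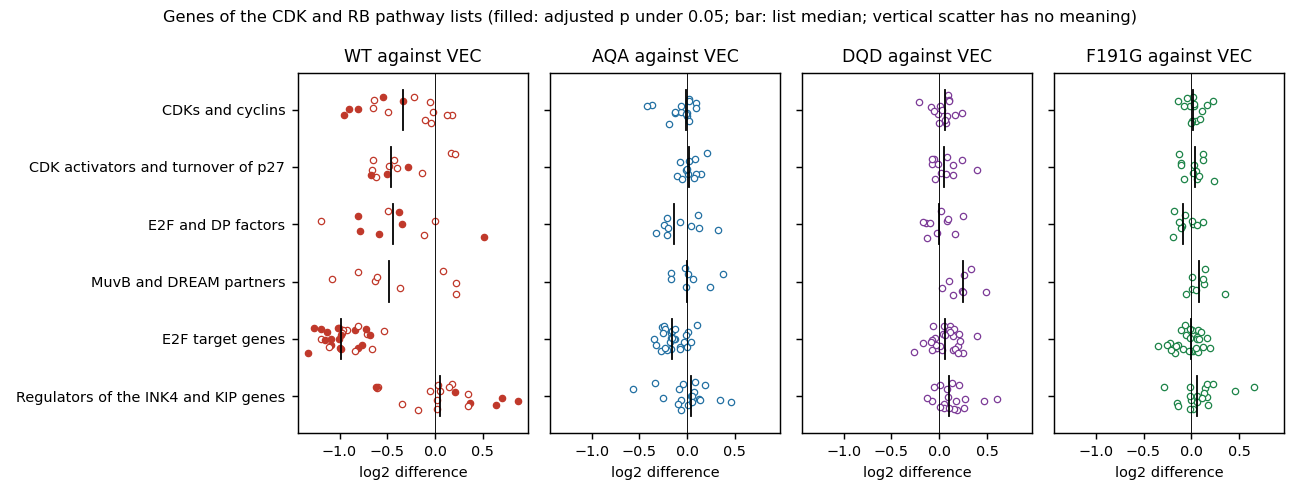
Log2 difference from VEC of each gene of 6 CDK and RB pathway lists in WT, AQA, DQD and F191G; filled points have an adjusted p under 0.05, the bar is the list median, and vertical scatter has no meaning. Filled points appear in WT alone, where the E2F target median is -0.99.

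The genes whose pattern over the 15 arrays was most like that of a called member were found by Pearson correlation after removal of the batch means, as a description. For Rbl2 they were Nbr1 (r = 0.983), Sesn3 (0.981) and Kdm7a (0.979). For Rbl1 they were Pcna (0.996), Zgrf1 (0.995) and Wdhd1 (0.994), and Pcna is also in the E2F target list. For Cdkn2b they were Il5 (0.938), Eid2b (0.919) and Spsb4 (0.913). The points share the 5 groups and replicate A of WT, without which the 9 values of r were 0.876 to 0.983.

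Markers of other cell types were also read, since the sample could hold them. The summed level of 17 fibroblast, endothelial and haematopoietic markers ran from 96.1 to 96.2 on the VEC arrays and from 96.1 to 97.3 on those of WT. It was 94.6 to 96.1 for AQA, 93.1 to 94.9 for DQD and 94.4 to 95.1 for F191G. As these are sums of log2 values, a shift shared by all genes of an array enters them 17 times. Median centring of the arrays adds 0.11 to every DQD against WT difference, and these sums were not centred. Of the 17 markers, 1 was called in WT against VEC, Cd68, which was higher, where 12.8% of all genes were called. In DQD against WT 6 were called, Col1a1, Pdgfrb, Kdr, Cd68, Csf1r and Cd3e, all lower. There 24.5% of all genes were called, 12.8% lower. The leucocyte marker Ptprc had a mean of 4.56. Means of Pdgfra, Col1a1, Col1a2 and Cd68 were 7.46, 6.95, 6.70 and 6.66, above the array medians. Col3a1 (6.38) and Cd14 (6.41) lay within the range of those medians, and the other markers below it. The part of these markers in the Rbl2, Rbl1 and Cdkn2b differences was not tested.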

How the data were processed

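Total RNA from 15 samples was hybridised to Affymetrix mouse gene arrays, and the authors deposited log2 values for 23811 probe sets. RMA and limma are named in the submitters' processing notes, without versions. The series also states a further normalization by Twist1 expression, of a form that is not given, and whether the deposited values hold it is unknown. Of the probe sets, 20852 had a single symbol in the platform annotation, 1440 had several and 1519 were not listed. They named 19297 genes, each read from its brightest probe set. Members and gene lists were chosen with earlier results of these data known.

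Groups and batches came from the sample labels. All 15 arrays entered a limma 3.58.1 fit in R 4.3.3, with group and batch as terms, 9 residual degrees of freedom and Benjamini-Hochberg adjustment over all 19297 genes. The script was tested on simulated data. The genes named are the 9 members, Twist1, up to 4 genes per pathway list with the smallest p against VEC, and the 3 genes most like each called member; other list genes were named after their values were seen, to spell out short counts. Alternatives covered normalization, filters, batch, weights and each array left out. Ccnb1, Skp1a, Foxo3, Cdkn1a and some other genes of the lists are not reported here. The number of arrays limits the precision.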

Additional observations from a re-analysis of the deposited data

How the results depend on the processing

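Over the 28 alternatives of each member difference, no called difference changed sign, and the numbers of members called moved as follows. The share of all genes called under each setting is not given beside these numbers, so they are not read as a result about the members. Without the batch term, 1 member was called in AQA against VEC, 1 in AQA against WT, 5 in DQD against WT and 4 in F191G against WT. With array weights the numbers were 2 in WT against VEC, 2 in AQA against VEC, 1 in AQA against WT and 2 in DQD against AQA. Without the dimmest 33.3% of genes they were 1 in AQA against WT and 2 in F191G against WT, and with quantile normalization 1 in DQD against WT. With Twist1 as a covariate it was 0 in WT against VEC (2 at an unadjusted p under 0.05 by limma). Fitting only the arrays of the groups compared, batch A alone or batch B alone gave 0 in WT against VEC, DQD against WT and F191G against WT, with 2 to 4 members at an unadjusted p under 0.05 by limma; fewer arrays enter these fits. Leaving out single arrays gave 0 to 3 members in WT against VEC, 0 to 1 in AQA against VEC, 0 to 2 in AQA against WT, 0 to 5 in DQD against WT and 0 to 3 in F191G against WT. Otherwise the cause was not tested.

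The letters A to C were not taken to pair samples: deviations of same-lettered arrays of different groups correlated at -0.85 to 0.22, with 6 of 30 over 0.1, and 0 of 15 arrays correlated best with an array of its own letter. With the letter as a replicate block, 1 member was called in DQD against WT, and the other numbers of members did not change. Of all genes, 1523 were then called in WT against VEC, where 2466 were called without it. The share of all genes called in DQD against WT with the block is not given, so that count is not read as a result about the members.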
